A study of Mus musculus with 19 samples.

Results

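Expression of 10 genes of motile cilia was followed across 19 organoid lines from the ductal epithelium of mouse pancreas. The genes were the regulators Foxj1, Rfx2, Rfx3 and Myb, the kinesins Kif27 and Kif9, the radial spoke head genes Rsph1, Rsph4a and Rsph9, and the dynein arm gene Dnali1. They were picked by symbol from the 29861 rows of the deposited table, and with results of these data already known. Their own differences are therefore a description, and no p-value is printed for any of the 10. Calls of these genes rest on adjusted p and are not an independent test. All 10 passed the filter on low values, under which 12500 genes were tested.

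Organoids are hollow spheres of epithelial cells kept in a basement membrane gel. The 6 tumor lines came from pancreatic adenocarcinomas of mice with Pdx1-Cre and Trp53LSL-R172H. Ducts of mice with Pdx1-Cre whose pancreas held pancreatic intraepithelial neoplasia (PanIN), a precursor lesion, gave the 6 PanIN lines. The 7 normal lines came from ducts of wild-type pancreas. Pdx1-Cre recombines its target alleles in the epithelium of the pancreas, and the genotypes are given here in part. Every mouse had a C57B6/J background, and all lines were kept in 1 medium with mEGF, FGF-10, mNoggin, R-spondin, gastrin and the TGF-beta receptor inhibitor A83-01; no source used here gives the age of the mice. RNA of a line was pooled over several wells, and nothing in the labels says whether lines shared a mouse or litter, so the spread is between lines.

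A cilium is a hair of microtubules anchored by a basal body. The core of a motile cilium, the axoneme, carries dynein arms that make neighbouring microtubule doublets slide, and radial spokes and a central pair that coordinate the beat. Foxj1 is the forkhead factor that switches on axoneme genes, and RFX factors bind X-box motifs in front of many ciliary genes. Pancreatic duct cells usually bear a single primary cilium, whereas multiciliated cells of airway and oviduct bear many motile ones.

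RefSeq promoter windows (build GRCm38.p6, 250 bases before to 50 after the start site) were matched for 7 of the 10 genes. They are shown because members of the RFX family are among the regulators and because Kif9, Rsph9 and Dnali1 had lower levels in tumor lines while Rfx2 did not. Capitals mark the letters GTNNCCNNGGNNAC, an X-box spelling that equals its own reverse complement. In Dnali1 they mark the shorter GTNNCCATGG, which lies inside the longer match in Kif9 and Rsph9.
Kif9 (chr9:110476708-110477007, plus strand): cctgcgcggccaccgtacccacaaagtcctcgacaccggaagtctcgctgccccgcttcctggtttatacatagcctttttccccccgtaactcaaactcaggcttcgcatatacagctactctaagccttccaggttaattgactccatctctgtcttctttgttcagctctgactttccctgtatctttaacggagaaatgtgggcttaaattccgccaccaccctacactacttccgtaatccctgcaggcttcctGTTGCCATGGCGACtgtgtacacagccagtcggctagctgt
Rsph9 (chr17:46144151-46144450, minus strand): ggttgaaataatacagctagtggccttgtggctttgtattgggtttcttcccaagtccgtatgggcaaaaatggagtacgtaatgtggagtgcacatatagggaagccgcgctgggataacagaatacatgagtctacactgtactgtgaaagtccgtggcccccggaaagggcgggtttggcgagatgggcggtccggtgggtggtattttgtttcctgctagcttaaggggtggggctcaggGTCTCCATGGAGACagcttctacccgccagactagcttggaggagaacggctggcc
Dnali1 (chr4:125065608-125065907, minus strand): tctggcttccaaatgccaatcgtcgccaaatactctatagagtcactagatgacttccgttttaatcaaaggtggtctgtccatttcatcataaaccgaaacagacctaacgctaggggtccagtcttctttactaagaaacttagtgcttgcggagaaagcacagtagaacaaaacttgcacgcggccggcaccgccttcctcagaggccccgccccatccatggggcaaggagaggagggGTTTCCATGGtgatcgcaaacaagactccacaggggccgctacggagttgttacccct
Rfx2 (chr17:56830959-56831258, minus strand): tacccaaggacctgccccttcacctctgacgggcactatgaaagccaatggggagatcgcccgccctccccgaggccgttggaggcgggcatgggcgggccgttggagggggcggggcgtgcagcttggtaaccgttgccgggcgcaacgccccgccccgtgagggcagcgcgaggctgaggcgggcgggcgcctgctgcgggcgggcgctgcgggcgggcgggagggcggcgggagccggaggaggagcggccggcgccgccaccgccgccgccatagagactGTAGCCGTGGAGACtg

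The longer spelling was present in 618 of 32851 promoter windows (1.88%) and the shorter, read on both strands, in 736 (2.24%). Kif9, Rsph9 and Rfx2 held the longer one and Kif9, Rsph9 and Dnali1 the shorter. The forkhead letters TGTTTAC, read on both strands, were in 3.65% of windows and, among the matched genes, in Myb alone. Kif27 and Rfx3 held none of the 3 spellings. Spellings were tried with the sequences in view, and a match describes letters only.

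Levels are TPM, which corrects for transcript length and so allows levels to be compared between genes. In tumor lines the 10 genes were in the order Foxj1, Rsph9, Rfx2, Kif27, Rsph1, Kif9, Rfx3, Myb, Dnali1 and Rsph4a by mean TPM. In normal lines the order was Foxj1, Rsph9, Kif27, Rsph1, Kif9, Rfx2, Dnali1, Rfx3, Rsph4a and Myb. Mean Foxj1 exceeded that of 77.7% of tested genes in tumor lines, 92.8% in PanIN lines and 89.5% in normal lines. Neighbours in the normal order such as Kif27 and Rsph1, Dnali1 and Rfx3, or Rsph4a and Myb lay within 1 SD of each other, whereas Foxj1 stood above Rsph9 by more than the spread of either.

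The label of motile cilia was checked against other genes of that structure. Of 13 axonemal dynein heavy chain genes, the motors of the motile cilium, 12 were below 1 TPM in every line and 3 of them were listed at 0. The exception, Dnahc7b, has near-identical copies, so its reads cannot be assigned with certainty. Some regulators of multiciliation were also near 0: the highest value in any line was 0.19 TPM for Ccno, 0.23 TPM for Ccdc67 (Deup1) and 0.01 TPM for Trp73, and Mcidas was not analysed here. Of 14 genes of a multiciliated cell programme list, 6 stayed below 1 TPM in every line. Others on that list were not low, with highest values of 49.05 TPM for Hes6, 44.7 TPM for E2f4 and 38.7 TPM for Plk4. Of 12 surface and axoneme markers of multiciliated airway and oviduct cells, 8 stayed below 1 TPM in every line and Sntn was listed at 0. Dnahc5 and Dnahc9 are also counted among the heavy chains and Ccdc78 on the programme list, so these counts overlap. The summed level of the 12 markers was 1.01 to 4.64 TPM in tumor lines, 2.71 to 10.5 TPM in PanIN lines and 3.01 to 15.0 TPM in normal lines. The 10 genes are therefore called by their names here, not as markers of multiciliated cells.

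Other cell types were scarce by their markers. Below 1 TPM in every line were 14 of 15 acinar markers, 15 of 16 endocrine markers, 6 of 8 tuft markers, 12 of 13 fibroblast and mesothelial markers, 11 of 13 blood cell markers and 6 of 6 endothelial markers. Duct markers summed to 7515 to 9422 TPM in tumor lines, 8077 to 12542 TPM in PanIN lines and 10454 to 15520 TPM in normal lines. Between 11938 and 12437 genes reached 1 TPM in a line, and read depth is unknown because TPM keeps none.

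Foxj1 was the most abundant of the 10 genes in every group. It ranged from 10.4 to 88.2 TPM (median 48.5) in tumor lines, from 99.6 to 186.2 TPM (median 115.95) in PanIN lines and from 42.5 to 117.3 TPM (median 101.7) in normal lines. All 6 tumor lines were below all 6 PanIN lines, while tumor and normal lines overlapped. The lowest tumor lines were tumor 5 at 10.4 TPM and tumor 8 at 18.5 TPM, and the highest PanIN line was PanIN 4. Means were 45.4 ± 28.2 TPM in tumor lines (SD, n = 6), 125.9 ± 31.8 TPM in PanIN lines (n = 6) and 87.5 ± 29.5 TPM in normal lines (n = 7). On the log2(TPM + 1) scale, which understates changes of low genes, the difference was -1.72 (SE 0.38) for tumor against PanIN lines, -1.15 (SE 0.37) for tumor against normal lines and 0.57 (SE 0.37) for PanIN against normal lines. In bulk RNA, fewer cells with a transcript and less transcript per cell cannot be told apart, here and below.

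The RFX members were low and nearly level. Rfx2 ranged from 4.14 to 6.37 TPM (median 5.62) in tumor lines, from 3.85 to 5.85 TPM (median 5.54) in PanIN lines and from 3.66 to 6.06 TPM (median 5.55) in normal lines. Rfx3 ranged from 1.57 to 3.14 TPM (median 2.87) in tumor lines, from 2.25 to 4.01 TPM (median 2.99) in PanIN lines and from 2.49 to 3.81 TPM (median 3.19) in normal lines. Groups overlapped for both genes. Tumor 5 had the lowest Rfx3 value of the 19 lines but the highest Rfx2 value. The tumor against normal difference was 0.10 (SE 0.12) for Rfx2 and -0.21 (SE 0.12) for Rfx3. Of the RFX family list, 5 of 8 genes were tested and 0 were called by limma in each contrast; at an unadjusted p below 0.05 these were 0 for tumor against normal lines (44% of tested genes), 2 for tumor against PanIN lines (29.7%) and 2 for PanIN against normal lines (19%).

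Myb, a factor of cycling progenitor cells that also acts early in multiciliated cell formation, averaged 2.26 ± 1.3 TPM in tumor lines (SD, n = 6), 0.812 ± 0.395 TPM in PanIN lines (n = 6) and 1.36 ± 0.471 TPM in normal lines (n = 7). It ranged from 0.92 to 4.54 TPM (median 1.92) in tumor lines, from 0.31 to 1.4 TPM (median 0.805) in PanIN lines and from 0.73 to 2.14 TPM (median 1.32) in normal lines. Tumor 8 was highest, followed by tumor 9 and tumor 5, and the groups overlapped. The log2 difference was 0.79 (SE 0.22) for tumor against PanIN lines, 0.40 (SE 0.21) for tumor against normal lines and -0.38 (SE 0.21) for PanIN against normal lines. Its relative Mybl2, a cell cycle factor, was higher in tumor lines than in normal lines (20.2 ± 8.21 TPM, n = 6, against 9.46 ± 3.55 TPM, n = 7; log2 difference 1.01, SE 0.27, limma adjusted p = 0.00939).

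**Figure D1:**
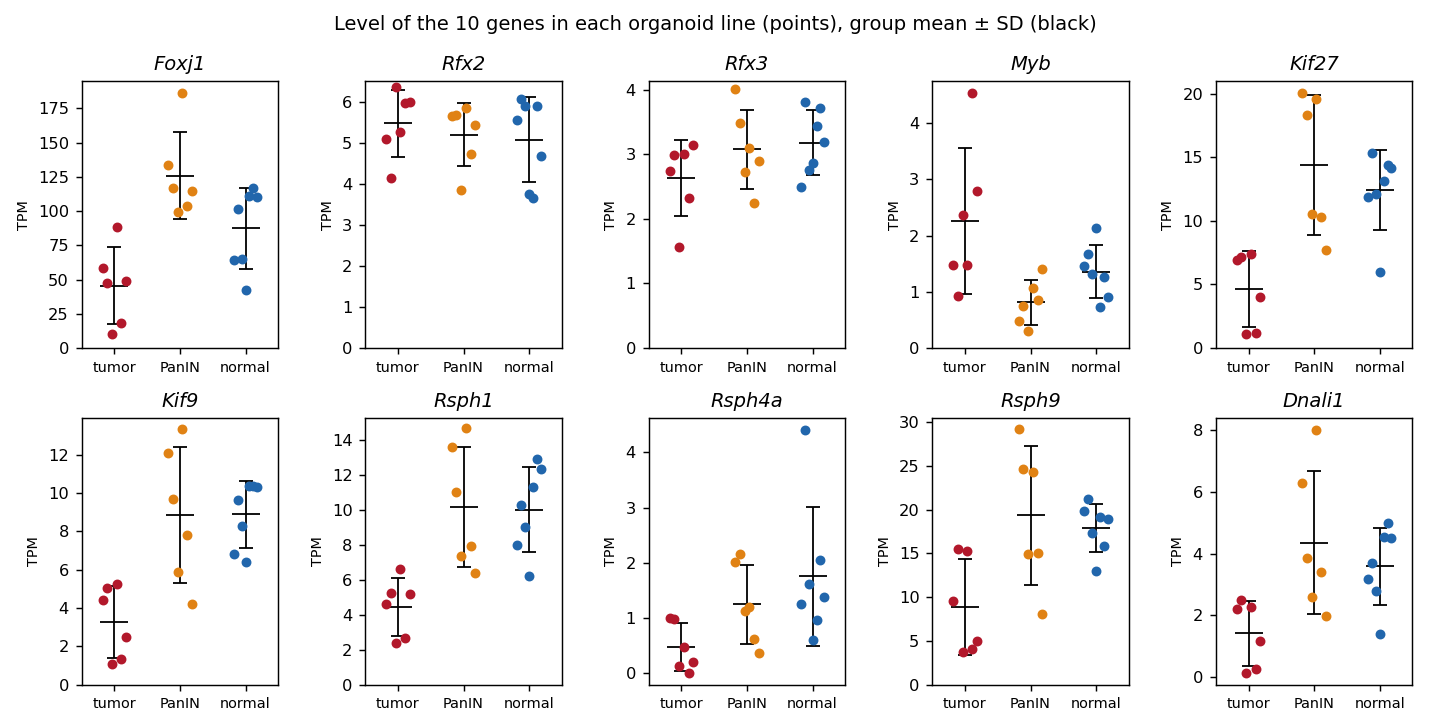
TPM of each gene (y axis, linear, 1 panel a gene) in tumor, PanIN and normal lines (x axis), with 1 point a line and the group mean ± SD in black. Foxj1 and the 6 genes from Kif27 to Dnali1 have their lowest points in tumor lines, Rfx2 and Rfx3 are nearly level, and Myb has its highest point in a tumor line.

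Both kinesins were lower in tumor lines. Kif27, which stabilises a complex needed for the central pair in mouse motile cilia, ranged from 1.12 to 7.40 TPM (median 5.48) in tumor lines, from 7.68 to 20.04 TPM (median 14.4) in PanIN lines and from 5.96 to 15.3 TPM (median 13.2) in normal lines. Every tumor line was below every PanIN line, and only normal 10 lay within the tumor range. Kif9, a kinesin of the central pair, ranged from 1.08 to 5.27 TPM (median 3.45) in tumor lines, from 4.19 to 13.3 TPM (median 8.76) in PanIN lines and from 6.39 to 10.4 TPM (median 9.61) in normal lines. Here every tumor line was below every normal line, and PanIN 6 lay within the tumor range. The tumor against PanIN difference was -1.59 (SE 0.35) for Kif27 and -1.25 (SE 0.28) for Kif9. The tumor against normal difference was -1.43 (SE 0.34) for Kif27 and -1.32 (SE 0.27) for Kif9, whereas PanIN against normal was 0.16 (SE 0.34) for Kif27 and -0.07 (SE 0.27) for Kif9.

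The 3 radial spoke head genes differed in level but were lowest in the same tumor lines, tumor 5 and tumor 8. Rsph9 ranged from 3.78 to 15.5 TPM (median 7.33) in tumor lines, from 8.10 to 29.2 TPM (median 19.7) in PanIN lines and from 13.04 to 21.2 TPM (median 18.9) in normal lines. Rsph1 ranged from 2.37 to 6.63 TPM (median 4.895) in tumor lines, from 6.38 to 14.7 TPM (median 9.5) in PanIN lines and from 6.20 to 12.9 TPM (median 10.3) in normal lines. Rsph4a was the lowest of the 3, with 0.00 (tumor 8, listed at 0) to 1.00 TPM (median 0.33) in tumor lines, 0.35 to 2.15 TPM (median 1.16) in PanIN lines and 0.60 to 4.41 TPM (median 1.38) in normal lines. Tumor and normal lines overlapped for each of these genes; for Rsph1 the overlap was made by tumor 7 and normal 10. In PanIN lines the low values of all 3 came from PanIN 6. The tumor against PanIN difference was -1.13 (SE 0.32) for Rsph9, -1.04 (SE 0.22) for Rsph1 and -0.60 (SE 0.27) for Rsph4a. The tumor against normal difference was -1.11 (SE 0.31) for Rsph9, -1.04 (SE 0.22) for Rsph1 and -0.86 (SE 0.26) for Rsph4a. RefSeq places Rsph1 over Ubash3a and Rsph9 over Mrps18a, and no source used here gives the strand setting of the counting, so shared reads are possible.

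Dnali1, a light intermediate chain of the inner dynein arm, ranged from 0.15 to 2.51 TPM (median 1.68) in tumor lines, from 1.97 to 8.0 TPM (median 3.63) in PanIN lines and from 1.41 to 5.0 TPM (median 3.69) in normal lines. Tumor 5 and tumor 8 had 0.15 and 0.27 TPM, and tumor 3, tumor 4 and tumor 7 lay within the range of both other groups. The log2 difference was -1.17 (SE 0.32) for tumor against PanIN lines, -1.0 (SE 0.30) for tumor against normal lines and 0.17 (SE 0.30) for PanIN against normal lines. Dnali1 overlaps Gnl2 in RefSeq, with the same limit on shared reads.

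Counts of calls (limma adjusted p below 0.05 over all tested genes) of the 10 genes are set beside the share of all tested genes called. Between tumor and normal lines 7 of the 10 were called, all lower, against 32.2% of tested genes called and 14.4% called lower. Among the 7 is Rsph4a, which in tumor lines reached 1 TPM only in tumor 3 (1.00 TPM). It passed the filter through normal and PanIN lines, so its call as lower can lean on the filter. Between tumor and PanIN lines 4 of 10 were called lower (Foxj1, Kif27, Kif9 and Rsph1), against 1.6% of genes called and 1.21% called lower. Between PanIN and normal lines 0 of 10 were called, against 6.78% of genes called, and also 0 at an unadjusted p below 0.05, against 19% of genes. The median of the 10 log2 differences was -1.02 for tumor against normal lines, -1.08 for tumor against PanIN lines and 0.0041 for PanIN against normal lines, where the median over all tested genes was 0.039, 0.055 and -0.029. Groups did not overlap for Kif9 between tumor and normal lines (4.36% of tested genes had every tumor line below every normal line) and for Foxj1 and Kif27 between tumor and PanIN lines (0.968% likewise). In the authors' deposited table, 7 of the 10 were called lower between tumor and normal lines (32.5% of its genes called), 6 lower and Myb higher between tumor and PanIN lines (11.7% called) and 0 between PanIN and normal lines (10.5% called). The 2 tumor contrasts share the tumor lines, and each pair of contrasts shares a group, so they are not independent.

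**Figure D2:**
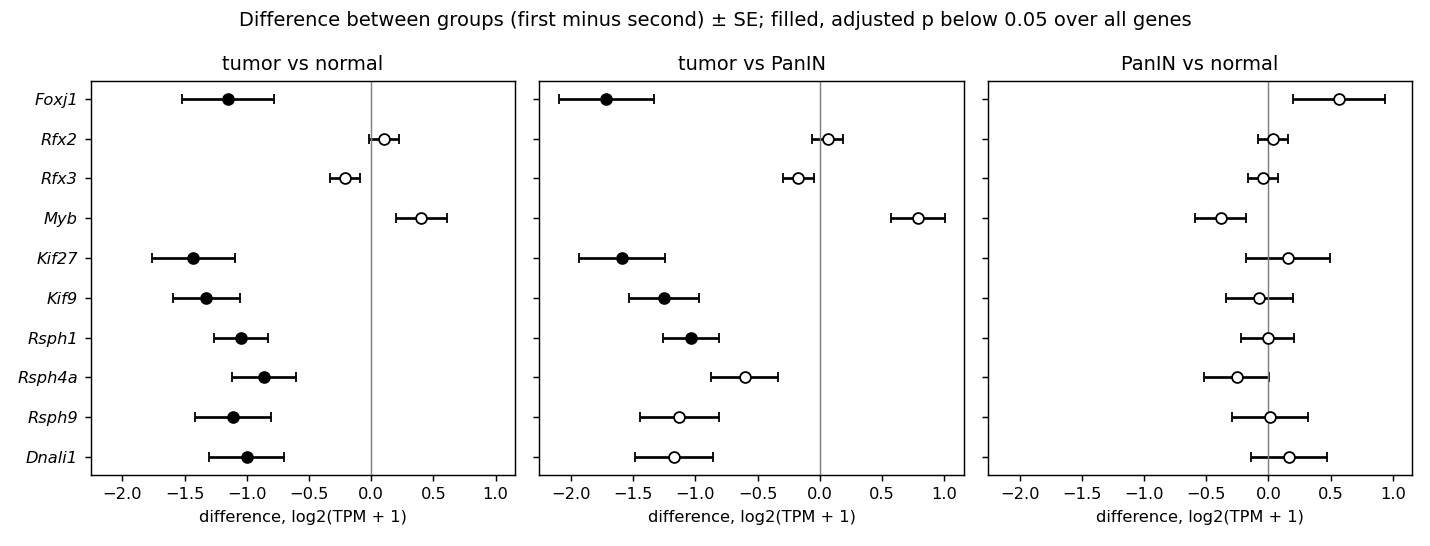
Difference of mean log2(TPM + 1) (x axis) with its SE for each gene (y axis) in tumor minus normal, tumor minus PanIN and PanIN minus normal lines; filled points are called at adjusted p below 0.05 over all tested genes. Kif27 is at -1.43 in the first panel and -1.59 in the second. In the third panel Foxj1 is at 0.57, Myb at -0.38 and Rsph4a at -0.26, and the other points lie nearer the zero line.

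A pair of tumor lines stood apart. Tumor 5 and tumor 8 were the 2 lowest of all 19 lines in 7 of the 10 genes, namely all but Rfx2, Rfx3 and Myb. These lines also differed in make-up of the library: 11 expressed rows for which the authors' deposited table gives no comparison took 16.3% and 18.2% of their TPM, against 21.1% to 28.6% in the remaining 17 lines. With TPM rescaled without those rows the counts called were still 7 and 4 in the tumor contrasts. Without both lines, a choice made after seeing the data, the tumor against normal difference was -0.48 for Foxj1, -0.85 for Kif27, -0.91 for Kif9, -0.76 for Rsph1, -0.66 for Rsph4a, -0.71 for Rsph9 and -0.57 for Dnali1. The count called in tumor against normal lines was then 3 (Kif27, Kif9 and Rsph1), and between tumor and PanIN lines 0, where Foxj1 differed by -1.05 and Kif27 by -1.01. Leaving out tumor 5 alone or tumor 8 alone ended the tumor against normal call of Foxj1, at -0.80 and -0.96, and of Dnali1, at -0.81 and -0.84, and without tumor 8 that of Rsph4a ended at -0.76. In tumor against normal lines the count was 5 without tumor 5, 4 without tumor 8 and 7 or 8 without any other single line, the 8 without tumor 4 being 7 lower and Myb higher. In tumor against PanIN lines it was 0 without tumor 5, tumor 8, PanIN 1, PanIN 2 or PanIN 4, 1 without tumor 9, and 7 (6 lower and Myb higher) without tumor 4, tumor 7, PanIN 6 or normal 11, and it ranged from 3 to 5 without any other single line.

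Column names of the deposited table carry identifiers, which were grouped here by their form into 3 series. The names do not say what the identifiers stand for. The series hold 1, 3 and 2 tumor lines, 3, 1 and 2 PanIN lines, and 3, 2 and 2 normal lines. Tumor 5 and tumor 8 are both in the second series. The median tumor against normal difference of the 10 genes was -0.51 in the first series, -1.08 in the second and -1.10 in the third, with 9, 8 and 8 genes below 0. For tumor against PanIN lines the medians were -0.50, -1.79 and -0.46, with 9, 8 and 6 genes below 0. PanIN against normal changed sign between series, with medians of 0.16, 0.62 and -0.61. With the series as a covariate, the calls of the 10 numbered 7 for tumor against normal lines and 0 for tumor against PanIN lines. For tumor against PanIN lines the difference of Foxj1 was then -1.65 (-1.72 without the covariate), that of Kif27 -1.39 (-1.59 without it), that of Kif9 -1.19 (-1.25 without it) and that of Rsph1 -1.0 (-1.04 without it).

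The genes were then compared with each other across lines, as log2(TPM + 1). The points share libraries and groups, and the genes were chosen with these values known, so no p is given. Over the 45 pairs the median Pearson r was 0.73 (median Spearman rho 0.66) in 19 lines, with a range of -0.78 to 0.97, and 0.63 with each group's mean removed. Without tumor 5 and tumor 8 these medians of r were 0.47 and 0.49. The 7 genes Foxj1, Kif27, Kif9, Rsph1, Rsph4a, Rsph9 and Dnali1 made up the block of high values: their 21 pairs had a median r of 0.91 (0.61 to 0.97), and 0.86 with group means removed (0.46 to 0.95). Rsph4a, the lowest in TPM of the 7, had the weakest links to Foxj1. Without tumor 5 and tumor 8, r with Foxj1 was 0.36 for Rsph4a, 0.55 for Rsph9 and 0.69 for Kif9. Likewise without these lines it was 0.79 for Kif27, 0.80 for Rsph1 and 0.81 for Dnali1.

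Rfx3 ran with that block although its groups overlapped, at r = 0.73 with Foxj1 and 0.75 with Rsph1. Without tumor 5 and tumor 8 its r with Foxj1 was 0.39, and without tumor 5 and PanIN 1 that with Rsph1 was 0.60. Rfx2 had r = -0.17 with Foxj1 and -0.15 with Kif27 over all lines, and within groups its sign differed. With Foxj1 its r was -0.59 in tumor lines, 0.70 in PanIN lines and 0.21 in normal lines, and 0.26 over the lines without tumor 5 and tumor 8. With Kif27 it was -0.77 in tumor lines, 0.56 in PanIN lines and 0.56 in normal lines. Myb ran against the block over all lines, at r = -0.78 with Kif27 and -0.72 with Foxj1, and with group means removed these were -0.67 and -0.49. Within groups its r with Kif27 was -0.81 in tumor lines, -0.27 in PanIN lines and -0.62 in normal lines. With Foxj1 it was -0.58 in tumor lines, 0.34 in PanIN lines and -0.73 in normal lines.

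**Figure D3:**
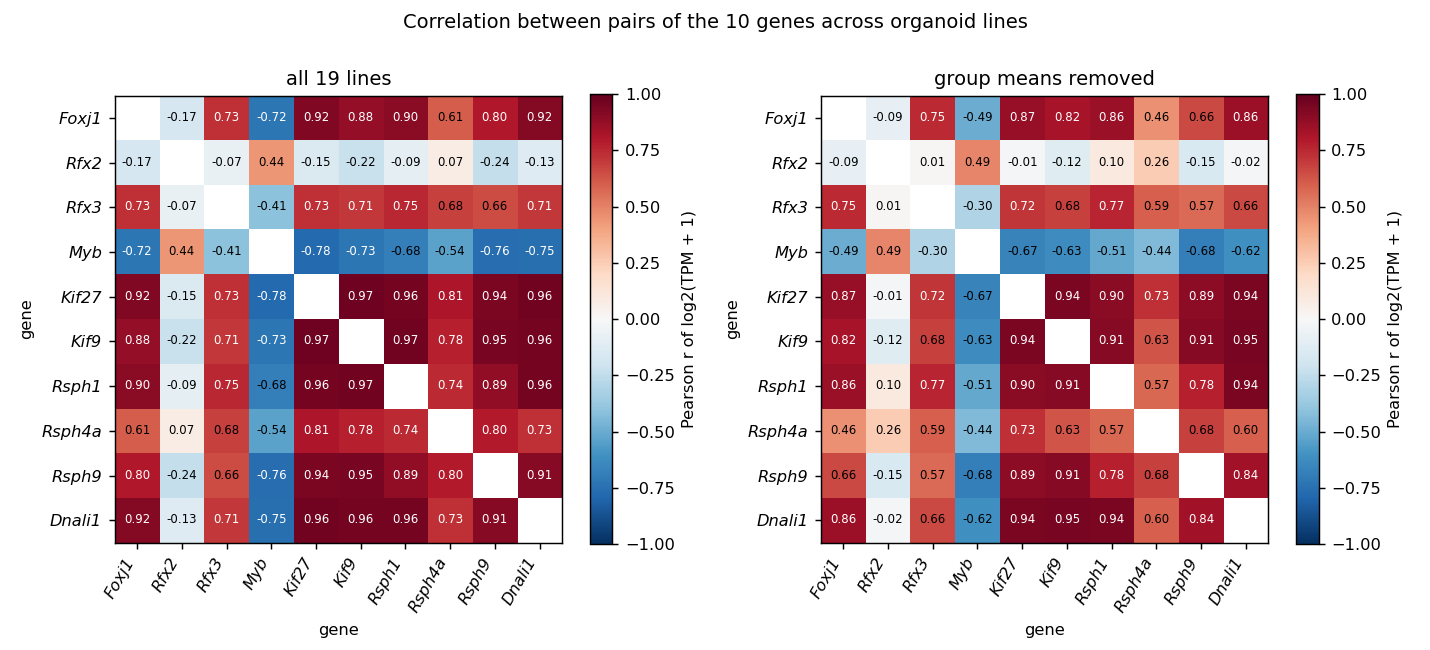
Pearson r of log2(TPM + 1) for each pair of the 10 genes (both axes) across all 19 lines on the left and with group means removed on the right; the colour scale runs from -1 to 1. Foxj1 and the genes from Kif27 to Dnali1 form a block from 0.61 to 0.97 on the left and from 0.46 to 0.95 on the right, and the Myb row is negative against it.

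Foxj1 was set against the axoneme genes line by line. The summed level of Kif27, Kif9, Rsph1, Rsph4a, Rsph9 and Dnali1 was 8.63 to 37.3 TPM (median 23.4) in tumor lines, 28.7 to 83.2 TPM (median 57.4) in PanIN lines and 33.6 to 64.6 TPM (median 59.5) in normal lines. Foxj1 and the mean log2 level of these 6 genes had r = 0.89 (rho = 0.79) over 19 lines, 0.72 without tumor 5 and tumor 8, and 0.82 with group means removed. Within groups r was 0.91 in tumor lines, 0.67 in PanIN lines and 0.93 in normal lines. Per unit of Foxj1 the sum was 0.37 to 0.83 (median 0.50) in tumor lines, 0.25 to 0.62 (median 0.43) in PanIN lines and 0.52 to 0.79 (median 0.63) in normal lines. The lowest ratio was that of PanIN 6, where Foxj1 was 114.7 TPM and the sum 28.7 TPM, and the highest that of tumor 5, where both were low.

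**Figure D4:**
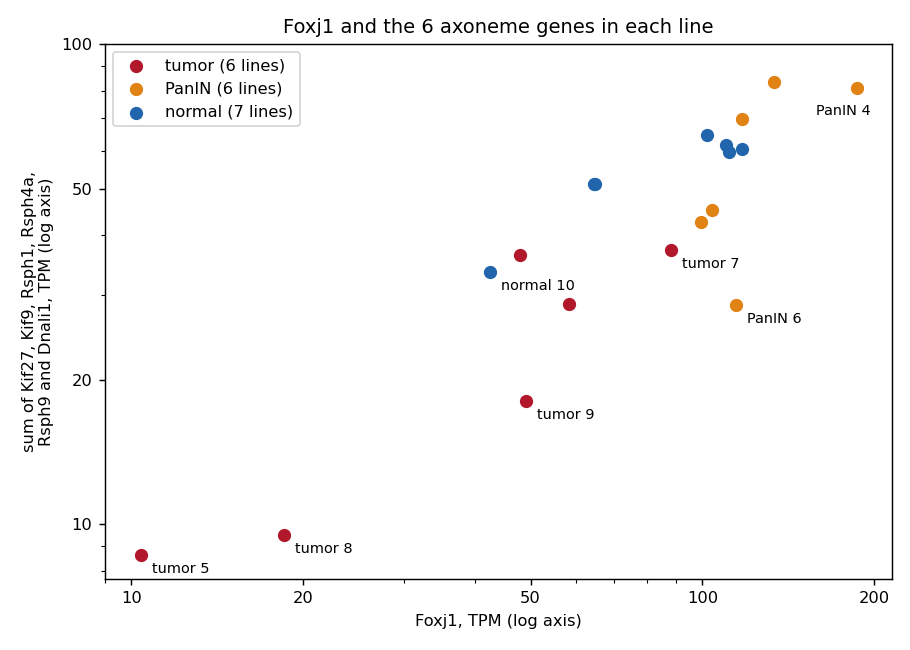
Summed TPM of the 6 axoneme genes (y axis, log) against Foxj1 TPM (x axis, log), with 1 point a line coloured by group. Tumor 5 and tumor 8 are at the low end of both axes, and PanIN 6 lies below the other PanIN lines at a similar Foxj1 level.

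For each gene the most similar other genes across the 19 lines were listed by Pearson r. Foxj1 was nearest to Ccdc103 (r = 0.93), a dynein arm assembly factor, then to Cd81 and Ccdc96 (both 0.91). Kif27 was nearest, apart from an unnamed predicted gene, to Nme5 (0.99) and Enkur (0.98), Kif9 to Enkur (0.98) and Cetn4 (0.98), and Rsph9 to Ppil6 (0.98) and Enkur (0.97). Dnali1 was nearest to Ttc25 (0.98), a dynein docking factor, and Spag6 (0.95), a central pair protein. Rsph1 was nearest to Rabl5 (0.97), an intraflagellar transport GTPase, Nek11 (0.97) and Ccdc96 (0.96), and Rsph4a to Lrrc6 (0.95), Rab36 (0.94) and Lrrc56 (0.94). Of the neighbours named so far, Cd81, Ppil6, Rabl5, Nek11, Rab36 and Lrrc56 were not on the ciliary lists. None of the neighbours of the remaining regulators was on those lists either. They were Cnpy3, Eefsec and Nudc for Rfx2 (0.89, 0.86 and 0.84) and Tmem30a, Pcmtd1 and Tmem106b for Rfx3 (0.92, 0.91 and 0.91). Those of Myb were Rangrf, Fam69b and Lsm3 (0.91, 0.91 and 0.90). With group means removed, the nearest named gene was the same for Foxj1 (Ccdc103, 0.90), Rfx2, Rfx3, Kif27, Rsph9 and Dnali1, and became Ttc25 for Kif9, Tmem67 for Rsph1, Lrrc56 for Rsph4a and Fam82a2 for Myb.

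Other axoneme genes came from 3 lists that leave out the 10 genes, 109 genes in all, of which 97 were in the table and 44 tested. The lists here and below were also chosen with earlier results of these data known, and their genes are named by smallest p. The p-values printed for them are therefore a description, not an independent test. Between tumor and normal lines 38 of the 44 fell and 0 rose, with a median log2 difference of -0.88, against 14.4% of tested genes called lower. By list these were 10 of 11 genes of dynein arms and their assembly, 8 of 10 of radial spoke and central pair, and 20 of 23 of nexin link, tektins and other axoneme. Normal and PanIN lines alone can carry a gene past the filter. On the last list, tumor lines had 6 (tumor 8) to 22 (tumor 3) genes at 1 TPM or more, against 19 to 24 in normal lines. Counts of lower axoneme genes in tumor lines, here and below, can therefore lean on genes that passed through the other groups. The Kif6 kinesin averaged 1.63 ± 0.66 TPM in tumor lines (SD, n = 6) and 4.40 ± 0.72 TPM in normal lines (n = 7), a log2 difference of -1.06 (SE 0.17, limma adjusted p = 0.000496), with no overlap. Nme5, a radial spoke protein, averaged 13.5 ± 10.1 TPM in tumor lines and 40.1 ± 12.2 TPM in normal lines (-1.85, SE 0.43, limma adjusted p = 0.00456), with overlap. Ccdc65 and Ccdc39, both needed for the nexin link and inner arms, averaged 0.787 ± 0.503 and 0.793 ± 0.451 TPM in tumor lines, against 2.95 ± 0.897 and 3.38 ± 1.13 TPM in normal lines, with limma adjusted p = 0.000943 and 0.00157 and no overlap. Stk36, the kinase that partners Kif27, averaged 0.843 ± 0.398 TPM in tumor lines and 2.33 ± 0.708 TPM in normal lines (limma adjusted p = 0.00175), and every tumor line was below every normal line. Among the other named genes that fell were the dynein arm genes Ccdc114 (-1.03), Ccdc151 (-0.81), Ccdc103 (-0.86) and Spag1 (-0.45), the spoke and central pair genes Spag6 (-1.33) and Rsph3b (-0.47), and Lrrc48 (-1.48). Without tumor 5 and tumor 8, 18 of the 44 were called.

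Between tumor and PanIN lines 10 of the 44 axoneme genes fell and 0 rose, with a median of -0.76, against 1.21% of tested genes called lower. Nme5 averaged 13.5 ± 10.1 TPM in tumor lines and 42.6 ± 16.01 TPM in PanIN lines (-1.90, SE 0.45, limma adjusted p = 0.0419). Spag6 averaged 2.19 ± 1.404 TPM in tumor lines and 7.22 ± 2.90 TPM in PanIN lines (-1.41, SE 0.32, limma adjusted p = 0.0356). Also lower were Kif6, Ccdc114, Ttc25, Ccdc103, Pih1d2, Enkur and Ccdc96, at -0.75 to -1.26, and of these named genes Ccdc96 alone had groups that did not overlap. This count turned on single lines: it was 35 without PanIN 6, 28 without tumor 4, 20 without normal 11, 18 without tumor 7, 6 without normal 6, 4 without normal 7, 3 without normal 5, 2 without PanIN 5 or normal 13, and 0 without tumor 5, tumor 8, tumor 9, PanIN 1, PanIN 2, PanIN 3 or PanIN 4. Without tumor 5 and tumor 8 together, and likewise with the identifier series as a covariate, it was 0. Under that covariate Ccdc114 differed by -0.96 (-1.08 without it), Ccdc103 by -0.92 (-0.90 without it) and Ccdc96 by -0.99 (-1.0 without it). Between PanIN and normal lines 0 of the 44 were called (6.78% of tested genes), with 3 at an unadjusted p below 0.05 (19% of tested genes) and a median of -0.097. Within the 3 identifier series the median of the 44 was -0.52, -0.93 and -0.91 for tumor against normal lines, -0.57, -1.37 and -0.17 for tumor against PanIN lines, and 0.022, 0.48 and -0.71 for PanIN against normal lines.

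Genes of intraflagellar transport and the basal body, which primary and motile cilia share, also fell in tumor against normal lines in 36 of 47 tested, with a median of -0.58, against 14.4% of tested genes called lower. Bbs5 averaged 9.10 ± 1.11 TPM in tumor lines and 14.7 ± 1.86 TPM in normal lines (limma adjusted p = 0.000153), and Rpgrip1l 5.26 ± 1.23 TPM in tumor lines and 10.5 ± 1.41 TPM in normal lines (limma adjusted p = 0.000281), without overlap. Kif3a, a motor subunit of intraflagellar transport, fell too (-0.76). Between tumor and PanIN lines 3 of 47 fell (Wdr35, Kif3a and B9d1), against 1.21% of tested genes called lower. These calls ended without single lines: any of normal 13, PanIN 1 to 4, tumor 5, tumor 8 and tumor 9 for Wdr35 and Kif3a, and any of these lines and of normal 5, normal 6, normal 7 and normal 10 for B9d1. Between PanIN and normal lines 3 of 47 were called, all lower (Rpgrip1l, Bbs5 and Cc2d2a). The share of tested genes called in either direction was 6.78%, and the share called lower is not given here. Below 0 were 42 of the 47 differences, with a median of -0.21, against -0.029 over all tested genes. Within the 3 identifier series the median of the list was -0.079, 0.084 and -0.59. The PanIN against normal call of Rpgrip1l ended without PanIN 5, and that of Bbs5 without PanIN 5, PanIN 6, normal 6 or normal 12. That of Cc2d2a ended on leaving out any of 10 lines.

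Of 8 tested genes of the multiciliated cell programme list, 2 rose between tumor and normal lines, against 17.8% of tested genes called higher, and 0 fell. In a list of 8 genes a count of 2 is near that share and does not set the list apart. E2f4, a partner of multiciliation regulators that also acts in the cell cycle, averaged 35.5 ± 7.50 TPM in tumor lines and 24.9 ± 2.81 TPM in normal lines (0.48, SE 0.12, limma adjusted p = 0.0072), and Plk4, the kinase of centriole duplication, averaged 32.2 ± 6.42 TPM in tumor lines and 22.1 ± 5.87 TPM in normal lines (0.55, SE 0.19, limma adjusted p = 0.0371). Both genes also serve dividing cells. The count was 1 without tumor 5, tumor 8, tumor 9, normal 11 or normal 13, where Plk4 was no longer called, 3 without PanIN 6 and 4 without tumor 4, and it was 0 without tumor 5 and tumor 8 together. The list had 0 calls between tumor and PanIN lines, with 4 genes at an unadjusted p below 0.05, against 29.7% of tested genes (4 called without tumor 4 or PanIN 6, 1 without normal 11). Between PanIN and normal lines it had 0 calls, with 2 genes at an unadjusted p below 0.05, against 19% of tested genes (1 called without PanIN 6).

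**Figure D5:**
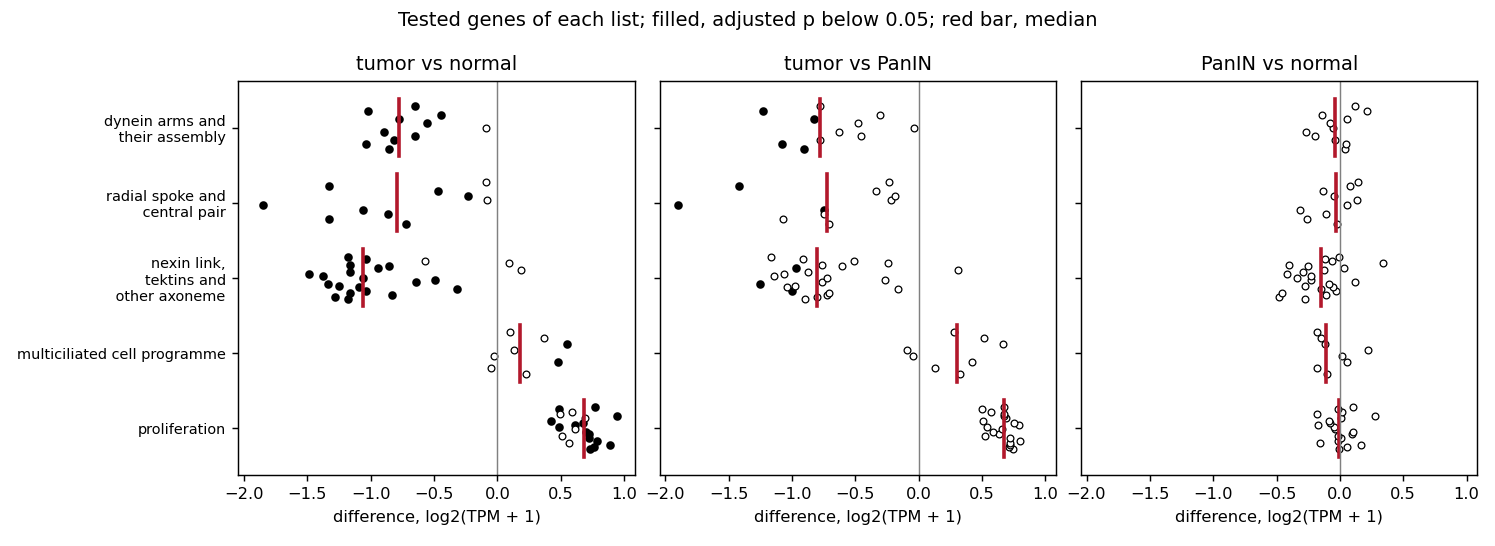
Difference of mean log2(TPM + 1) (x axis) for every tested gene of 5 lists (y axis), which leave out the 10 genes, in tumor minus normal, tumor minus PanIN and PanIN minus normal lines; filled points are called, and the red bar is the list's median. The medians of the 3 axoneme lists lie to the left of 0 in both tumor panels and that of the proliferation list to the right, at 0.68 in the first and 0.67 in the second.

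A list of proliferation genes was followed beside these values. Of its 20 genes, 14 rose between tumor and normal lines, with a median of 0.68, against 17.8% of tested genes called higher. Between tumor and PanIN lines 0 of 20 were called by limma, with all 20 at an unadjusted p below 0.05 (29.7% of tested genes) and a median of 0.67, and between PanIN and normal lines 0 were called, also 0 at that unadjusted p. Within the identifier series the tumor against normal median of the list was -0.28 in the first, with 20 of 20 genes below 0, and 1.32 in the second and 0.75 in the third, with 0 below 0. The mean log2 level of the list was highest in tumor 8 (6.84), tumor 5 (6.83) and tumor 9 (6.73). Across the 19 lines that mean and the mean of the 7 axoneme-linked genes had r = -0.74 (rho = -0.74), -0.76 without normal 11 and tumor 8, and -0.54 with group means removed. Within groups it was -0.82 in tumor lines, -0.52 in PanIN lines and -0.36 in normal lines. Myb and the proliferation mean had r = 0.83 (rho = 0.89), 0.88 without normal 11 and tumor 8, and 0.81 with group means removed. The part of proliferation in the differences was not tested.

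Foxj1 had an r above 0.6 with 7.94% of the 12499 other tested genes, whose median r was -0.094. Among the fixed lists it had such an r with 8 of 11 dynein arm genes, 9 of 10 radial spoke and central pair genes, 20 of 23 nexin link and other axoneme genes and 33 of 47 intraflagellar transport and basal body genes. With group means removed these counts were 6, 5, 14 and 28, for which no matching share of all tested genes is given. Counts without tumor 5 and tumor 8 are not given either. It was above 0.6 with 0 of 8 multiciliated programme genes and 0 of 20 proliferation genes.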

How the data were processed

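Trizol RNA of 19 lines went into TruSeq stranded libraries depleted of ribosomal RNA, per the labels' protocols. The deposited table holds TPM from the authors; the tools named in the submitters' processing notes are Bowtie 1.1.0, RSEM 1.2.11, FastQC, DESeq and DESeq2 1.4.1, with build mm9. No source used here names the annotation. The authors' comparisons are, per the file headers, a base mean (a signal averaged over lines), log2 fold change with its standard error, test statistic (a score), p-value and adjusted p-value; the adjusted p-values and the signs of the fold changes are used.

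Values on the log2(TPM + 1) scale were fitted in R 4.3.3 by limma 3.58.1 (1 mean per group over 19 lines, eBayes with trend, two-sided, Benjamini-Hochberg within a contrast). A gene was tested with TPM of at least 1 in at least 6 lines and called with adjusted p below 0.05. Normal and PanIN lines alone can meet this filter, so genes called lower in tumor lines may have passed it through those lines. TPM keeps no depth, so precision comes from the spread of lines. The R package data.table (version 1.17.8) read the table, pandas 2.3.3 the sequences, and matplotlib 3.10.9 drew the plots. The fit was tested on simulated data.

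The 10 genes and all lists were chosen with earlier results of these data known. Named genes are the 10, up to 3 most correlated genes of each, and from each ciliary list up to 4 called genes with the smallest p per contrast; predicted genes were not named. Mybl2 and genes at or near 0 were named outside this rule, after their values were seen. An allele of PanIN and tumor mice and some genes that the naming rule selects are not reported here. Alternatives changed the pseudocount, filter, scaling, eBayes trend, covariates, block, lines in the fit and single lines.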

Additional observations from a re-analysis of the deposited data

Results flagged for a closer look

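Of 30 groups of values (10 genes in tumor, PanIN and normal lines), 2 held a line far from the rest of its group by Dixon's criterion, which chance meets in about 1 group in 20. Kif27 was 5.96 TPM in normal 10, where the nearest other normal line had 11.88 TPM, a gap of 0.631 of the group's range. Rsph4a was 4.41 TPM in normal 6, where the next normal line had 2.04 TPM, a gap of 0.622 of the range.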

How the results depend on the processing

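Depth behind TPM is unknown, so no limit from counting can be given. Genes of the 10 called between tumor and normal lines were 7, and 0 with a replicate block, 3 without tumor 5 and tumor 8 and 4 to 8 with single lines left out. Between tumor and PanIN lines they were 4, and 0 with no filter, identifier series, replicate block, 2 groups only or without tumor 5 and tumor 8, and 0 to 7 with single lines left out; between PanIN and normal lines the count was 0 in all of these fits. Called axoneme list genes between tumor and normal lines were 38, and 18 at a TPM minimum of 5, 5 with a replicate block, 18 without tumor 5 and tumor 8 and 32 to 38 with single lines left out. Between tumor and PanIN lines they were 10, and 5 with pseudocount 0.1, 6 at a TPM minimum of 5, 18 with quantile normalization, 0 with no filter, identifier series, replicate block, 2 groups only or without tumor 5 and tumor 8, and 0 to 35 with single lines left out. Called multiciliated programme genes between tumor and normal lines were 2, and 1 with no filter, rescaled totals, sex or identifier series, 0 with a replicate block or without tumor 5 and tumor 8, and 1 to 4 with single lines left out; tumor against PanIN gave 0 to 4, and PanIN against normal 0 to 1, with 1 under identifier series. The median pairwise r was 0.58 to 0.77 with single lines left out, and 0.59 to 0.68 with group means removed; without tumor 5 and tumor 8 these were 0.47 and 0.49, against 0.73 and 0.63.

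Differences that changed sign were uncalled in every case. In PanIN against normal lines these were Rfx2 at -0.13, Kif27 at -0.43, Rsph9 at -0.60 and Dnali1 at -0.16 with a replicate block, Rfx3 at 0.038 and Rsph1 at 0.043 with quantile normalization, Rfx3 at 0.00063 and Rsph1 at 0.053 with sex, Rsph1 at 0.019 with median-of-ratios scaling, and Rsph9 at -0.0061 with rescaled totals and -0.012 with identifier series. Rfx2 was -0.048 between tumor and normal lines with a replicate block and -0.016 between tumor and PanIN lines without tumor 5 and tumor 8. With single lines left out, PanIN against normal ranged from -0.022 to 0.11 for Rfx2, -0.10 to 0.022 for Rfx3, -0.20 to 0.096 for Kif9, -0.11 to 0.10 for Rsph1, -0.12 to 0.23 for Rsph9 and -0.0032 to 0.32 for Dnali1, and tumor against PanIN from -0.0064 to 0.13 for Rfx2. Same-numbered lines deviated from their group means with r from -0.31 to 0.25. No values of lines with different numbers were set beside these, so they do not settle whether the numbers pair lines. The cause of the changes with a replicate block, and of the other changes, was not tested.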
